A study of Cavia porcellus with 18 samples.

Results

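Broad H3K4me1 domains were taken as the peaks of the deposited H3K4me1 list whose end minus start was 10000 bases or more. The list held 327682 peaks, and 8005 of them (2.44%) met this width, so that the members were chosen by peak width alone. These 8005 domains covered 142 of the 870 megabases under all H3K4me1 peaks, or 16.3%. Their median width was 13990 bases and the widest measured 220169 bases. Widths and H3K4me1 scores, which come from the same ChIP, are therefore given as descriptions. Peaks of 2000 to 5000 bases, of which there were 111893, served as the comparison throughout.

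Tissue came from the hippocampus of 3 male wild type animals of Cavia porcellus, the guinea pig, aged 12 weeks, with no treatment named in the labels and no contrast between animals. H3K4me1 ChIP-seq, Pol II PS5 ChIP-seq and bisulfite sequencing of H3K4me1-precipitated DNA (ChIP-bisulfite) had 3 libraries each, and reduced representation bisulfite sequencing (RRBS, on DNA cut with MspI and ApeKI) had 6 bisulfite libraries, read at 50 or 100 bases. Whole hippocampi were ground, so each value mixes all cell types of the tissue. The deposited values pool the animals: no spread between animals can be given, and each interval below reflects only the spread between scaffolds of the assembly.

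H3K4me1 is monomethylated lysine 4 of histone H3, found at enhancers and beside promoters, and long stretches of it can arise where several enhancers lie close together or where the mark runs along the body and flanks of a gene. Pol II PS5 is RNA polymerase II phosphorylated on serine 5 of its C-terminal repeat, the form found at and just after initiation. Methylation of cytosine in CG dinucleotides is usually high across mammalian genomes and is low at active CG-rich promoters and reduced at active enhancers.

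The domains were spread over 353 scaffolds and lay in groups. Of the 8005, 4483 were 10000 to under 15000 bases wide, 2799 were 15000 to under 30000 bases wide and 723 were 30000 bases or wider. The median gap from a domain to the nearest other H3K4me1 peak of any width was 777.5 bases, against 1599 bases for the comparison peaks. The median gap to the next domain was 15399 bases, and 71.7% of domains had another domain within 50000 bases. Over the 65 scaffolds that reached at least 10 megabases, the number of domains per megabase ranged from 0.0641 to 8.33, with a median of 2.69. A further 322 domains lay on scaffolds whose highest position in the files was below 1 megabase.

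The authors' H3K4me1 score runs on separate low and high scales in the same column, the first from 1.27 to 14.8 and the second from 42 to 3164. Of the domains, 7906 (98.8%) were on the high scale and 99 were on the low one, and among the comparison peaks 75.1% were on the high scale. On the high scale the median score was 63.5 in domains (quartiles 57.5 and 74) and 57.5 in comparison peaks (quartiles 53 and 65). It was 62.5, 64 and 68.5 in the narrow, middle and widest of the 3 domain classes. All 723 domains of 30000 bases or more were on the high scale. Score and width come from the same ChIP, so these values carry no test.

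The 10000-base limit fell on a continuous range of widths. The 100 narrowest domains (10000 to 10061 bases) had a median score of 57.75, a Pol II PS5 peak in 29, a listed start site in 26 and a mean RRBS level of 50.7% over 346 CG sites. The 100 widest peaks just under the limit (9942 to 9997 bases) had a median score of 60.5, a Pol II PS5 peak in 35, a listed start site in 30 and a mean RRBS level of 56.5% over 293 CG sites.

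Most domains were strings of narrower H3K4me1 intervals. The deposited table of averages gives methylation for 99978 intervals, and each of them lay inside a peak of the H3K4me1 list, although only 28212 had the bounds of a listed peak. Domains held 18296 of these intervals, in 7501 domains, and 5362 domains (67.0%) held at least 2 of them. Among comparison peaks 0.0581% held at least 2, but a peak of at most 5000 bases has little room for 2 intervals. Among peaks of over 5000 to under 10000 bases 6.09% did. The intervals inside domains had a median width of 3736 bases, were separated by a median of 2235 bases and covered 51.6% of the domains' bases. Only 60 of them had the bounds of the whole domain. How the authors made the narrower intervals was not stated in the sources used here.

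The widest domain, on scaffold_53 at 1214148 to 1434317, held 32 intervals and 4 Pol II PS5 peaks, and no listed start site lay in it. Its 177 CG sites averaged 62.1% in RRBS and 47.2% in ChIP-bisulfite. The next in width, on scaffold_2 at 69731364 to 69931905, held 28 intervals, 5 Pol II PS5 peaks and the start site of ENSCPOG00000010091. Its 215 sites averaged 61.5% in RRBS and 48.2% in ChIP-bisulfite. Each of the 10 widest domains, from 107588 to 220169 bases, held 2 to 6 Pol II PS5 peaks and at most 1 listed start site.

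**Figure D1:**
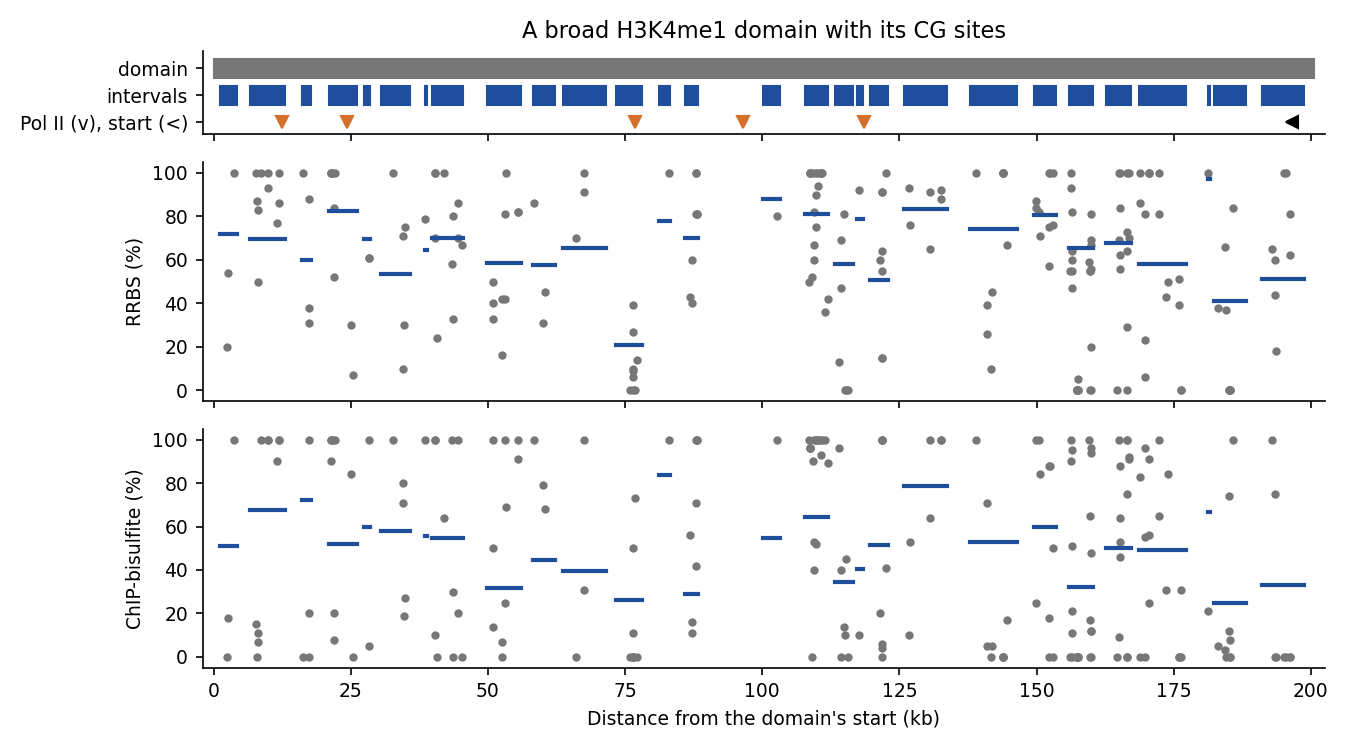
The domain of 200541 bases on scaffold_2, with the distance from its start in kilobases on the horizontal axis. The top panel shows the domain (grey), the 28 narrower intervals (blue), Pol II PS5 peaks (orange) and a start site on the minus strand (black), and the lower panels show each CG site (grey points) and each interval's mean (blue lines) in percent for RRBS and for ChIP-bisulfite; single sites range from 0% to 100% in both assays, unevenly along the domain.

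Along this domain the level changed from interval to interval. The interval from 73.3 to 78.1 kb had the lowest RRBS mean, 20.95%, and a ChIP-bisulfite mean of 26.0%, and a Pol II PS5 peak lay in it at 76.6 kb. The interval from 81.1 to 83.1 kb, the next one, had means of 78.0% and 83.5%. The other Pol II PS5 peaks were not in intervals of low RRBS mean. The interval around the peak at 24.2 kb averaged 82.4% in RRBS and 52.2% in ChIP-bisulfite, and the peak at 96.3 kb lay between intervals. An interval mean need not hold beside the peak. The CG sites nearest the peak at 24.2 kb, at 24.977 and 25.365 kb, had 30% and 7% in RRBS, and 84% and 0% in ChIP-bisulfite.

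Pol II PS5 peaks were found in more of the domains than of the comparison peaks. The order of densities per length depended on which scaffolds, score scales and width classes were compared. A wide region has more room for an overlap, so the density and the central window below are the comparisons. At least 1 Pol II PS5 peak overlapped 3395 domains, or 42.4% (exact 95% interval 41.3 to 43.5%), against 10.7% of comparison peaks. The share was 36.2%, 45.9% and 67.1% in the narrow, middle and widest domain classes. At least 2 Pol II PS5 peaks overlapped 1028 domains, and 5 or more overlapped 84. The median of the authors' Pol II PS5 score was 3.18 for the 4991 Pol II PS5 peaks in domains and 3.36 for those in comparison peaks.

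Per length, domains held 0.359 Pol II PS5 peaks per 10000 bases (SE 0.0108, scaffolds as clusters) and comparison peaks held 0.423. The difference, -0.0641 (95% interval -0.0991 to -0.0292), changed sign on the scaffolds of 1 megabase or longer, where domains held 0.314 and comparison peaks 0.271 peaks per 10000 bases, a difference of 0.0433 (0.0268 to 0.0598). It also changed sign among peaks of the high score scale on all scaffolds, to 0.0266 (0.00666 to 0.0465). Other width classes were denser than the domains. On the scaffolds of 1 megabase or longer, peaks of over 5000 to under 10000 bases held 0.335 and peaks under 2000 bases 0.447 per 10000 bases. Against peaks of 5000 to 10000 bases on all scaffolds, domains differed by -0.179 (-0.221 to -0.136). Shorter scaffolds held 40.2% of the Pol II PS5 overlaps of the comparison peaks on 6.53% of their bases, and 15.4% of those of the domains on 3.28% of theirs. On long scaffolds and in regions with no listed start site inside, the densities were 0.251 and 0.249, a difference of 0.00213 (-0.0135 to 0.0178). Within the domains density was lower in the wider classes, at 0.432 (SE 0.0185), 0.343 (SE 0.0130) and 0.265 (SE 0.00797) peaks per 10000 bases, and the same order held on the long scaffolds at 0.348, 0.312 and 0.264.

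A window of 1000 bases at the centre gave the same kind of result. It overlapped a Pol II PS5 peak in 4.02% of domains and 5.19% of comparison peaks, a difference of -1.16 percentage points (-1.75 to -0.580). On long scaffolds the shares were 3.48% and 3.36%, a difference of 0.118 points (-0.306 to 0.542). Inside the domains Pol II PS5 peaks leaned towards the edges: from the outer to the inner of 5 equal bins of relative position, the bins held 21.4%, 23.3%, 19.3%, 18.5% and 17.5% of them.

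**Figure D2:**
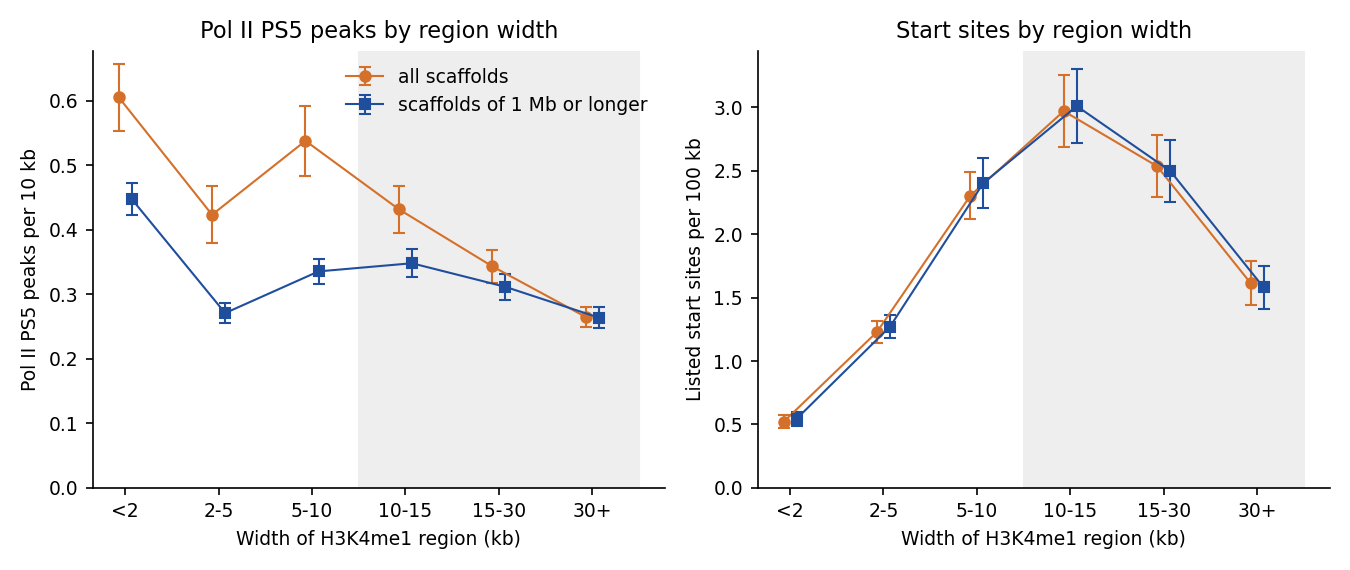
Pol II PS5 peaks per 10 kb (left) and listed start sites per 100 kb (right) by width of the H3K4me1 region in kb, with 95% intervals over scaffolds; the domains are shaded grey. With all scaffolds (orange) Pol II PS5 density is 0.423 in peaks of 2 to 5 kb and 0.359 over all domains, on scaffolds of 1 Mb or longer (blue) 0.271 and 0.314, and start sites are densest at 10 to 15 kb on both.

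The 10 domains with 9 to 14 Pol II PS5 peaks, the most of any, lay on scaffolds of at most 0.241 megabases. The first, on scaffold_704 at 220 to 20163, had 14 Pol II PS5 peaks over 19943 bases of a scaffold that reached 0.0629 megabases, with no narrower interval and no listed start site or CG site in it. On scaffolds of 1 megabase or longer, 25 domains held 5 or more Pol II PS5 peaks and none held more than 7. Read depth in ChIP was not in the files used here, so whether these short scaffolds draw reads from repeated sequence was not tested.

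Listed start sites were more frequent in the domains than in the comparison peaks, both per region and per length. A transcription start site of the authors' CG site table lay inside 2778 domains, or 34.7% (33.7 to 35.8%), against 3.77% of comparison peaks. Domains held 3531 start sites, 2.49 per 100000 bases, and comparison peaks held 1.23, a difference of 1.26 (1.104 to 1.42). On long scaffolds the difference was 1.21 (1.05 to 1.37). The table lists only transcripts with a measured CG site, and such sites were denser in domains, at 4.09 against 1.43 per 10000 bases. Peaks of over 5000 to under 10000 bases held 2.30 start sites per 100000 bases, 0.190 (0.0451 to 0.335) fewer than domains. On long scaffolds the density was 2.40 (SE 0.102) in that class and 2.48 (SE 0.110) in domains.

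Among the domains the narrowest class was densest in start sites, with 2.97 per 100000 bases, followed by 2.54 and 1.61 in the wider classes. The share with any start site ran the other way, from 28.9% to 39.0% and 54.2%. At least 2 start sites lay in 536 domains and at least 3 in 136. A start site in a domain had a median of 7636 bases of the domain upstream of it and 8335 bases downstream, and 52.3% of start sites had more of the domain downstream than upstream. The outermost of the 5 position bins held 20.4% of the start sites of all domains, and 16.5%, 20.9% and 31.3% in order of width class.

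Start sites and Pol II PS5 peaks occurred together in part of the domains. A Pol II PS5 peak overlapped 56.3% of domains with a listed start site and 35.1% of those without one. In order of domain width class these shares were 51.4% and 30.1%, 56.6% and 39.2%, and 71.7% and 61.6%. They were 25.4% and 10.1% in comparison peaks, and 45.9% and 20.2% in peaks of over 5000 to under 10000 bases. The association was therefore not particular to domains. Both features were present in 1563 domains, and neither in 3395 (42.4%). Of the Pol II PS5 peaks in domains, 15.4% lay within 1000 bases of a listed start site, against 6.92% in comparison peaks and 13.1% in peaks of over 5000 to under 10000 bases. Scaffolds under 1 megabase held 40.2% of the Pol II PS5 overlaps of comparison peaks and 15.4% of those of domains. The shares near a start site were not computed without these scaffolds. The authors' Pol II PS5 score per transcript was above 0 for 42.6% of start sites in domains and 37.8% in comparison peaks, a difference of 4.79 points (2.53 to 7.04). In peaks of over 5000 to under 10000 bases it was above 0 for 45.3% of start sites, so the higher share was not particular to domains.

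Methylation was described at CG sites measured in both bisulfite assays. Of 167387 such sites, 57881 (34.6%) lay in 5564 domains, with a median of 7 and at most 859 sites in a domain that had any. All but 1 of them lay inside a narrower interval, so the stretches between intervals were not sampled. The median RRBS depth was 17 reads per site in domains and in comparison peaks. For ChIP-bisulfite the depth of a single site is unknown. Of the sites in domains, 17.3% had another site 1 base away, as the paired cytosines of a CG on opposite strands do.

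Domains were methylated to an intermediate mean level that did not differ beyond error from the comparison peaks. The mean RRBS level was 53.8% (SE 0.752) in domains and 54.2% (SE 0.486) in comparison peaks, a difference of -0.354 points (-1.84 to 1.13). The mean ChIP-bisulfite level was 45.1% (SE 0.755) and 44.9% (SE 0.463), a difference of 0.147 points (-1.41 to 1.70). With sites averaged within each region first, so that regions with many sites weighed no more than others, domains were lower, with a difference of -4.04 points in RRBS (-4.75 to -3.32) and -2.95 points in ChIP-bisulfite (-3.78 to -2.12). Over the 3 domain classes the RRBS mean was 49.8% (SE 1.42), 55.1% (SE 0.562) and 57.8% (SE 0.611) in order of width, and the ChIP-bisulfite mean 41.3%, 46.2% and 48.8%.

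The make-up of sites differed where the means did not. Domains held a larger share of sites with a level above 20% and below 80%: 42.1% in RRBS against 36.1% in comparison peaks, a difference of 6.02 points (5.25 to 6.78), and 19.7% in ChIP-bisulfite against 12.0%, a difference of 7.63 points (7.08 to 8.19). On long scaffolds these differences were 6.07 and 7.61 points. Sites at 20% or less made up 25.3% of RRBS sites in domains and 27.9% in comparison peaks, and sites at 80% or more 32.7% and 36.0%. The median number of ChIP-bisulfite reads per narrower interval was 357 in domains and 118 in comparison peaks, with a median of 21 and 8 C positions. This came to a median of 17.2 and 15.5 reads per position, and the part of depth in the ChIP-bisulfite difference was not tested.

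Within 5000 bases of start sites the RRBS mean was higher in domains than in comparison peaks, and beyond 10000 bases it was lower. Within 1000 bases of a listed start site the RRBS mean was 32.1% in domains and 27.0% in comparison peaks, a difference of 5.17 points (1.999 to 8.34). In ChIP-bisulfite the means were 27.0% and 23.9%, a difference of 3.11 points (-0.836 to 7.06). On long scaffolds the difference was 6.79 points (4.59 to 8.99) in RRBS and 5.41 points (3.20 to 7.63) in ChIP-bisulfite. At sites over 2000 bases away from every start site the RRBS mean was 57.7% in domains and 59.7% in comparison peaks, a difference of -2.01 points (-2.96 to -1.06). The ChIP-bisulfite means there were 48.0% and 49.0%, a difference of -0.979 points (-2.14 to 0.185). At 2000 to 5000 bases from a start site the RRBS means were 53.9% (SE 0.948) in domains and 49.8% (SE 0.848) in comparison peaks, and at 5000 to 10000 bases 54.2% and 53.5%. At 10000 to 20000 bases they were 59.6% (SE 0.686) and 61.9% (SE 0.724). At 50000 bases or more they were 61.4% (SE 0.551) in domains and 65.5% (SE 0.432) in comparison peaks.

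**Figure D3:**
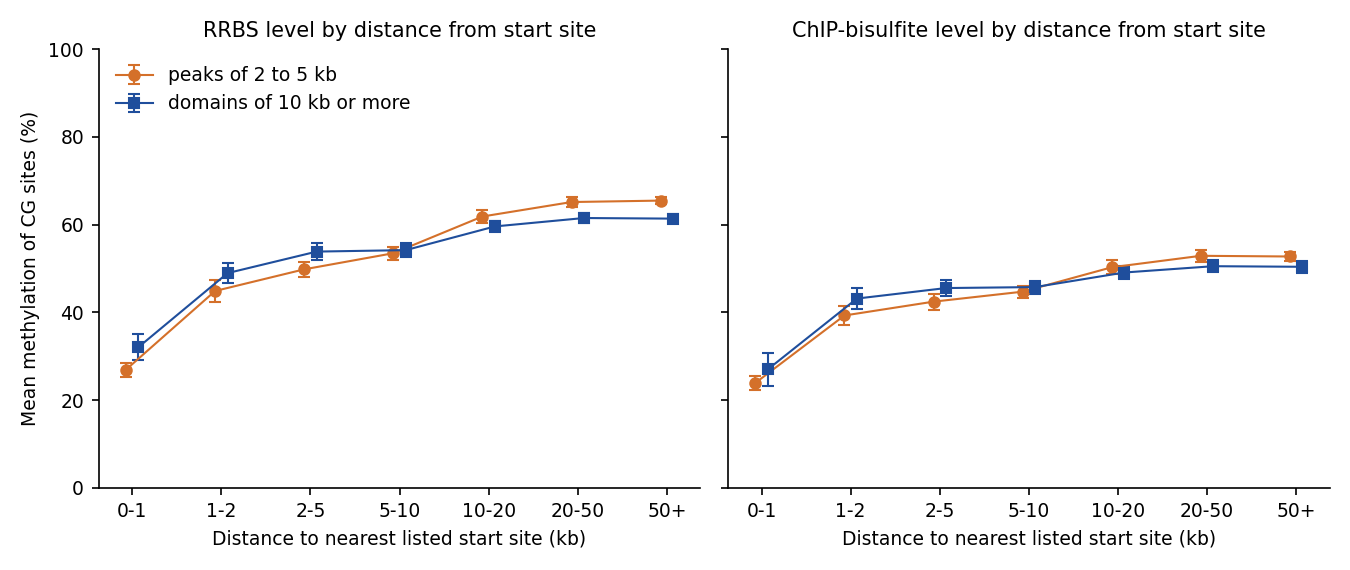
Mean methylation of CG sites in percent by distance to the nearest listed start site in kb, for RRBS (left) and ChIP-bisulfite (right), in domains of 10 kb or more (blue) and peaks of 2 to 5 kb (orange), with 95% intervals over scaffolds. Levels rise with distance in both, and the RRBS curve of the domains runs from 32.1% to 61.4% and that of the narrower peaks from 26.9% to 65.5%.

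Inside the domains, sites under Pol II PS5 peaks and in domains with start sites had lower levels. The 1449 sites under a Pol II PS5 peak, in 386 domains, averaged 24.3% in RRBS and 19.0% in ChIP-bisulfite, and the other sites 54.6% and 45.7%. The differences were -30.3 points (-32.8 to -27.8) and -26.8 points (-30.02 to -23.5). On long scaffolds, with 885 such sites, they were -28.5 and -23.9 points. The lower level under Pol II PS5 peaks was not particular to domains. In comparison peaks the RRBS means of sites under a Pol II PS5 peak and of the other sites were 22.6% and 54.8%. In peaks of over 5000 to under 10000 bases they were 19.9% and 52.1%. Sites in domains with a listed start site averaged 49.8% in RRBS against 59.6% in domains without one, a difference of -9.80 points (-11.4 to -8.24). In ChIP-bisulfite these means were 42.2% and 49.1%, a difference of -6.90 points (-8.44 to -5.35). Domains with and without a Pol II PS5 peak averaged 51.5% and 56.8% in RRBS, a difference of -5.32 points (-7.60 to -3.04). On long scaffolds this RRBS difference was -3.98 points (-5.21 to -2.75). In ChIP-bisulfite, over all scaffolds, the difference was -3.33 points (-5.70 to -0.956).

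By relative position from edge to centre, the level was flat in domains and fell steeply in the comparison peaks. A relative bin spans more bases in a domain than in a comparison peak, so the bins lie at unlike distances from an edge. In 5 equal bins of relative position from the edge to the centre, domains had RRBS means of 53.0%, 54.1%, 53.3%, 54.8% and 53.6%. Comparison peaks had 76.0%, 62.2%, 55.1%, 49.9% and 48.3%. The inner minus the outer bin was 0.592 points in domains (-1.25 to 2.43) and -27.7 points in comparison peaks (-29.5 to -25.9), and the difference between these was 28.3 points (26.0 to 30.6).

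ChIP-bisulfite gave the same shape. Its means in domains ran 44.5%, 45.6%, 44.9%, 45.05% and 45.03% from edge to centre, and in comparison peaks 69.6%, 54.4%, 45.7%, 40.1% and 38.2%. The inner minus the outer bin was 0.507 points in domains (-1.30 to 2.31) and -31.4 points in comparison peaks, and the difference between these was 32.0 points (29.3 to 34.6). Peaks of over 5000 to under 10000 bases lay between, with -7.55 points in RRBS and -7.76 in ChIP-bisulfite. In each of the 3 domain classes the interval of this difference included 0 in both assays, but over all domains of 15000 bases or more it was 1.95 points in RRBS (0.0776 to 3.83), higher at the centre.

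Counted in bases from the nearer edge, the RRBS mean was lower in domains than in comparison peaks in the outer 1000 bases and not farther in. Within 250 bases of an edge comparison peaks averaged 79.1% in RRBS over 2400 sites, whereas domains had only 103 sites there, with a mean of 50.4% (SE 7.58). At 500 to 1000 bases the means were 49.8% in domains and 56.6% in comparison peaks, and at 1000 to 1500 bases 51.0% and 50.1%. At 2000 to 2500 bases, near the centre of the comparison peaks, they were 50.6% (SE 1.34) and 47.5% (SE 1.51) in RRBS, and 43.4% (SE 1.15) and 38.5% (SE 1.43) in ChIP-bisulfite. The 2 classes also differed at their edges in nearness to start sites. Within 250 bases of an edge, 37.9% of domain sites and 10.9% of comparison sites lay within 2000 bases of a start site. At 500 to 1000 bases these shares were 33.0% and 19.9%. The part of start sites in the difference between the classes was not tested. In bins farther from the edge the RRBS mean of the domains was higher. It was 54.9% at 5000 to 10000 bases, 57.9% at 10000 to 20000 and 59.3% beyond 20000 bases. Only the wider domains reach beyond 10000 bases from an edge, and the RRBS mean by domain class was 49.8%, 55.1% and 57.8% in order of width. In domains of 30000 bases or more alone, the 5 relative bins had 56.0%, 57.7%, 58.0%, 58.7% and 58.3% from edge to centre. The part of domain width in the rise was not tested. Sites over 4000 bases from an edge exceeded those in the outer 1000 bases by 5.36 points in RRBS (2.56 to 8.16) and 3.66 points in ChIP-bisulfite (1.20 to 6.12). The share of sites within 2000 bases of a start site fell along the same course, from 33.0% at 500 to 1000 bases to 5.89% beyond 20000 bases. Among sites farther than 2000 bases from a start site, those over 4000 bases from an edge minus those in the outer 1000 bases gave -1.07 points in RRBS (-4.15 to 2.02) and -1.97 points in ChIP-bisulfite (-4.84 to 0.900).

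**Figure D4:**
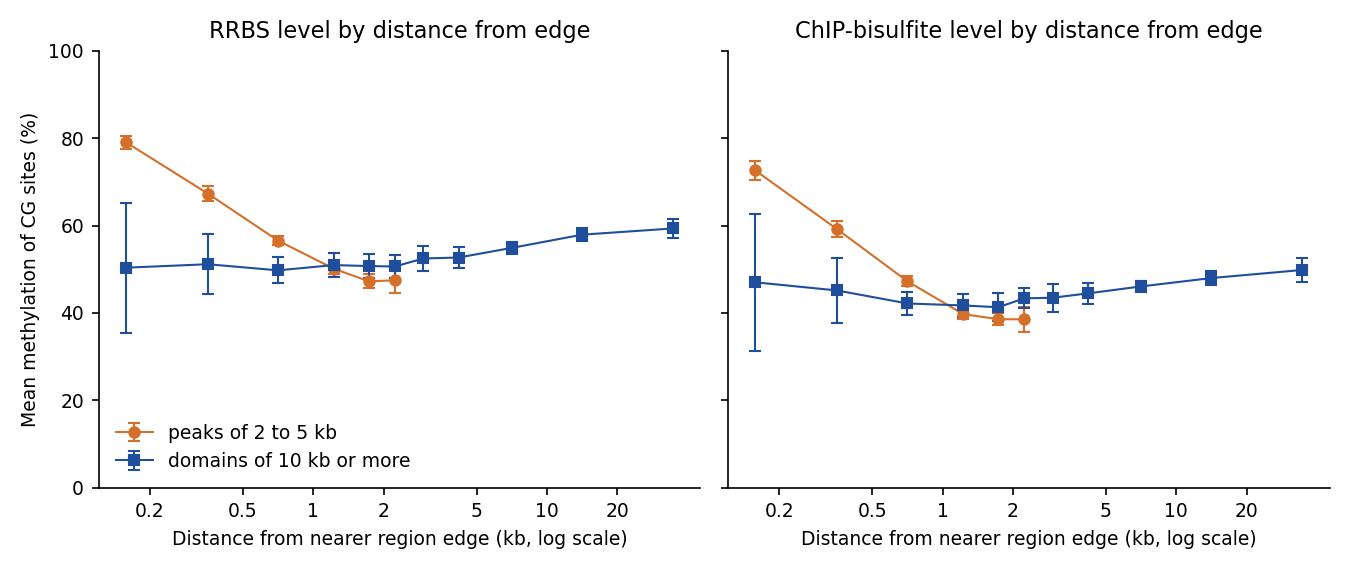
Mean methylation of CG sites in percent by distance from the nearer edge of the region in kb (log scale), for RRBS (left) and ChIP-bisulfite (right), in domains (blue) and in peaks of 2 to 5 kb (orange), with 95% intervals over scaffolds. The RRBS mean of the narrower peaks falls from 79.1% to 47.5% towards their centre, while that of the domains stays between 49.8% and 52.7% up to 5 kb. The domain mean is 59.3% beyond 20 kb, where only the wider domains have sites.

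An edge fall was present in the domains at the scale of their narrower intervals. By position within the interval that holds the site, the RRBS mean in domains was 58.1% in the outer bin and 52.7% in the inner bin, a difference of -5.45 points (-6.98 to -3.92), and -6.29 points (-7.85 to -4.73) in ChIP-bisulfite. In comparison peaks the same differences were -18.5 and -22.0 points. Among intervals of 2000 to 5000 bases alone, the RRBS difference was -7.42 points (-9.51 to -5.33) in domains and -18.8 points (-20.5 to -17.1) in comparison peaks, and these differed by 11.4 points (8.53 to 14.3). The fall was therefore smaller inside domains also when both sets were cut to this range of widths. Widths were not matched within the range. Over intervals of all widths, the median width was 3736 bases in domains and 2981 bases in comparison peaks. The part of interval width in the difference was not tested.

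**Figure D5:**
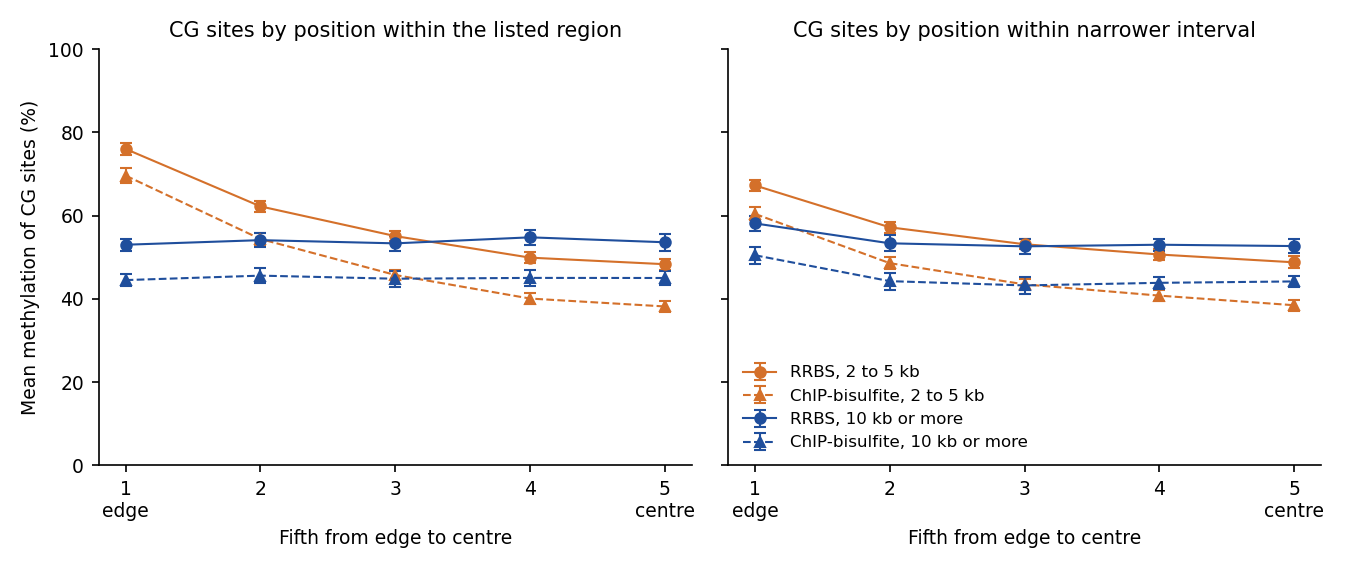
Mean methylation of CG sites in percent in 5 equal bins from edge (1) to centre (5), by position in the listed region (left) and in the narrower interval that holds the site (right), for domains (blue) and peaks of 2 to 5 kb (orange), RRBS as solid and ChIP-bisulfite as dashed lines, with 95% intervals over scaffolds. The RRBS mean of the narrower peaks falls from 76.0% to 48.3% and from 67.3% to 48.8%, that of the domains runs from 53.0% to 53.6% and from 58.1% to 52.7%.

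Intervals at the ends of a domain did not differ beyond error from those inside it. In 2437 domains with at least 3 intervals measured, the inner intervals averaged 61.8% and the outermost ones 61.4% in RRBS, a mean difference of 0.396 points (-0.470 to 1.26). In ChIP-bisulfite, over 2455 domains, the difference was 0.533 points (-0.198 to 1.27). Intervals of the same domain varied widely: the median range between them was 27.4 points in RRBS over 5080 domains. Only 12.1% of the variance between intervals lay between domains in RRBS, and 20.5% in ChIP-bisulfite.

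Averages over whole intervals, which take in the C positions of an interval that were covered in the assay, placed domains lower than comparison peaks in RRBS. The mean was 61.3% in the intervals of domains and 64.0% in those of comparison peaks, a difference of -2.73 points (-3.23 to -2.24). In ChIP-bisulfite the means were 49.4% and 49.0%, a difference of 0.442 points (-0.0536 to 0.937). The intervals of domains held 29.8 CG positions per 1000 bases, counted on both strands, against 27.7, a difference of 2.01 (1.34 to 2.68).

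Single sites of a domain resembled each other only at short range. The mean absolute RRBS difference between 2 sites of the same domain was 17.4 points at up to 50 bases, 25.2 at 50 to 200 bases and 34.8 at 200 to 1000 bases. It was 39.3 points at 5000 to 10000 bases, and 41.1 points between any 2 sites of all domains. Of 2106 domains with at least 10 sites, 1766 (83.9%) held both a site at 20% or less and a site at 80% or more in RRBS. Among comparison peaks with at least 10 sites, 188 of 374 (50.3%) did. These peaks held a median of 12 sites, and the domains 15, within a longer stretch. The peaks were also lower in level: their mean RRBS level had a median of 18.9%, against 56.0% in the domains, and was 20% or less in 193 of 374. The shares are therefore not of like regions.

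The mean RRBS level of those 2106 domains had a median of 56.0% and quartiles of 42.6% and 66.1%. It was 20% or less in 121 domains and 80% or more in 76. The 5 lowest, at 0 to 1.50%, were 10425 to 14776 bases wide and each held 1 Pol II PS5 peak and 1 or 2 listed start sites; in the domain on scaffold_5 at 49651190 to 49661615, around the start of ENSCPOG00000007414, the 14 sites averaged 0.429% in RRBS and 0% in ChIP-bisulfite. The 5 highest, at 93.9 to 97.9%, held no Pol II PS5 peak and no listed start site. Among the 398 domains with at least 3 sites in both the inner and the outer bin, the inner minus outer difference was positive in 208 and negative in 190, with a median of 1.61 points and single domains from -87 to 97.3 points.

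RRBS coverage far above the median of all domain sites was found in some domains on short scaffolds, and also on a long scaffold. The domain with the most sites was on a short scaffold. On scaffold_927 at 40 to 10214, it held 859 sites, 9 listed start sites and 6 Pol II PS5 peaks, with an H3K4me1 score of 2831. Its median RRBS depth was 146 reads per site, against 17 over all domain sites, and its mean levels were 21.6% in RRBS and 12.2% in ChIP-bisulfite. The scaffold reached only 0.0345 megabases. A second domain on it, at 10897 to 27858, had a score of 714, 9 Pol II PS5 peaks, 217 sites at a median of 100 reads and an RRBS mean of 29.0%. The domain on scaffold_537 at 187 to 13940 had a score of 322, 9 Pol II PS5 peaks, 310 sites at a median of 63 reads and an RRBS mean of 28.2%. On scaffold_13, which reached 48.4 megabases, the domain at 48344145 to 48360429 held 424 sites at a median of 55 reads. Its score was 58.5 and its RRBS mean was 56.75%. Leaving out the 1% of sites with the most RRBS reads moved the difference in RRBS mean between domains and comparison peaks from -0.354 to 0.0227 points (-1.05 to 1.09).

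ChIP-bisulfite read lower than RRBS at the same sites of the domains, by about as much as in the comparison peaks. ChIP-bisulfite minus RRBS was -8.79 points in domains (-9.23 to -8.35) and -9.29 points in comparison peaks, a difference of 0.501 (-0.179 to 1.18). Of the 2106 domains with at least 10 sites, 1646 (78.2%) had the lower mean in ChIP-bisulfite, and of the 374 comparison peaks, 230 (61.5%) did. These 374 peaks had a median mean RRBS level of 18.9%, against 56.0% in the domains, which leaves less room for a lower value. The 2 shares are therefore not of like regions. The gap was -5.09 points within 1000 bases of a start site in domains and -3.03 in comparison peaks, a difference of -2.06 (-3.43 to -0.682). Farther than 2000 bases from a start site it was -9.68 and -10.7 points, a difference of 1.03 (0.266 to 1.80). Over whole intervals it was -11.9 points in domains and -14.4 in comparison peaks, a difference of 2.57 (2.11 to 3.03).

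The authors' deposited list of differentially methylated sites called a smaller share of sites lower in domains than in comparison peaks. Both shares were near the share over all sites. The list holds sites at 30% or less in one assay and 70% or more in the other. Over all 167387 sites it called 10.2% lower and 2.93% higher in ChIP-bisulfite. In domains 5503 sites (9.51%) were listed lower, against 10.95% in comparison peaks, a difference of -1.45 points (-1.998 to -0.895). Listed higher were 1729 sites (2.99%), against 2.99% in comparison peaks, a difference of -0.00285 points (-0.263 to 0.257). Against peaks of over 5000 to under 10000 bases the difference in sites listed lower was -0.135 points (-0.631 to 0.361). In that class 9.64% of sites were listed lower. Domains also held a larger share of sites of intermediate level than comparison peaks, and its part in the difference was not tested.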

How the data were processed

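Hippocampi of 3 guinea pigs gave the libraries described above; 3 RRBS digestion controls without bisulfite were not used here. Per the submitters' processing notes, Bowtie2 2.2.3, SAMtools 1.1, MACS2 and HOMER 4.6 were used for ChIP-seq, Bismark 0.12.5 and methylKit for ChIP-bisulfite, and BSMAP 2.74 and methylKit for RRBS. The build of the genome is not given in the sources used here, so positions are those of the files and no sequence is printed. The authors deposited peak lists with a score per peak, CG site levels in percent, whole counts of RRBS reads per position (131062338 over 5053261 positions) and, in the table of averages, percent levels with ChIP-bisulfite read counts and RRBS reads treated as estimated counts. All are pooled over animals, and the labels name the H3K4me1 list for both the ChIP-seq and the ChIP-bisulfite samples.

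Domains were peaks of at least 10000 bases. Each CG site was counted once, with its nearest listed start site. ChIP-bisulfite columns of the table of averages were displaced against the other columns by a whole number of lines (at most 6) in 125589 of 198160 lines. They were moved back by a path that minimised the distance to the mean level of the interval's sites, with a penalty of 4 for each change. Entries listed in duplicate were then identical in 99.97% of 98182 intervals, against 18.5% as deposited. Interval means used at least 3 C positions.

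Means, differences and their 95% intervals came from linear fits with standard errors clustered by scaffold, and shares from exact binomial (Clopper-Pearson) intervals; no p-value was computed, and a difference is called beyond error where its interval excludes 0. These intervals cover neither animals nor, for shares, the dependence between neighbouring regions. Scaffold length was taken as the highest position in the files. The fits, overlap counts and line moves were tested on simulated data. Python 3.11.15, numpy 2.4.6, pandas 2.3.3 and scipy 1.17.1 were used.

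The domains, lists and alternatives were chosen with earlier results of these data known. Domains named are the 10 widest, the 5 with the most Pol II PS5 peaks (10 with those tied at 9) or CG sites, the 5 lowest and highest in RRBS among those with at least 10 sites, and the 5 extremes of inner minus outer level. None of the 19244 gene identifiers matched the 37416 genes of the reference table, so the gene lists and cell type markers set for the tissue were not applied, and the labelled tissue was not checked against markers.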

Additional observations from a re-analysis of the deposited data

How the results depend on the processing

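Of 131 alternative values for 15 results, 87 kept both their sign and whether their interval excluded 0 (or stayed within the interval of the share or median). A further 9 kept their sign with an interval that now excluded 0, and 3 kept it with an interval that now included 0. The sign was reversed in 22, and 10 shares or medians moved outside the main interval. No paired analysis was possible because the deposited columns pool the animals, and for the same reason no replicate could be left out. With domains of 15000 bases or more the median score was 65, the share with a Pol II PS5 peak 50.3%, the share with a start site 42.1%, the difference from comparison peaks 1.93 points in RRBS and 2.25 in ChIP-bisulfite, and the RRBS inner minus outer bin 1.95 (0.0776 to 3.83). With domains of 8000 bases or more these were 62.5, 37.7%, 29.1% and, for ChIP-bisulfite, -0.173, and the central-window difference in Pol II PS5 was -0.407. Against peaks of 5000 to 10000 bases, domains differed by 2.44 points in RRBS, 1.88 in ChIP-bisulfite, -0.560 in the gap between assays and -0.135 in sites listed lower.

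With peaks of the high score scale alone, the differences were 0.0266 Pol II PS5 peaks per 10000 bases, -0.200 in the central window and 1.02 points in RRBS. On scaffolds of 1 megabase or longer, an alternative chosen after seeing the data, they were 0.0433, 0.118 and 0.230, and the share of domains with a Pol II PS5 peak was 41.1%. That share was 21.6% with Pol II PS5 peaks above the median score and 35.05% in domains with no start site inside. The share with a start site was 39.9% with 1000 bases added at each edge.

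Farther than 2000 bases from start sites, domains differed by -2.01 points in RRBS, -0.979 in ChIP-bisulfite and 1.03 in the gap, and the inner minus outer bin was -1.69 and -1.33. With distance bins as covariate the RRBS difference was 0.164 and the inner minus outer bin -0.823 in RRBS and -0.506 in ChIP-bisulfite. Averaging sites within regions first gave -4.04 in RRBS, -2.95 in ChIP-bisulfite and 1.09 in the gap. At least 20 RRBS reads gave -1.31 in ChIP-bisulfite, and leaving out the 1% of sites with most reads gave 0.0227 in RRBS. Outer 1000 bases against over 4000 bases gave 5.36 and 3.66, and -1.07 and -1.97 among sites over 2000 bases from a start site, an alternative chosen after seeing the data; position within the narrower interval, also chosen then, gave -5.45 and -6.29. The cause was not tested for any of these. The difference of the inner minus outer bin between domains and comparison peaks kept its sign in every alternative run, from 8.17 to 29.7 points in RRBS and from 8.27 to 33.7 in ChIP-bisulfite. The fixed bases could not be applied to peaks of 2000 to 5000 bases, so each of these runs compared relative bins, which on average span more bases in domains.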
